A study of Mus musculus with 2 samples.

Results

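The fibrillar collagens were examined as a family of 10 genes of the 32285 in the deposited matrices: Col1a1, Col1a2, Col2a1, Col3a1, Col5a1, Col5a2, Col11a1, Col11a2, Col24a1 and Col27a1. Col5a3, also a fibrillar chain gene, was not on this list and is given with the collagen assembly genes. The 10 genes were taken by symbol as members of the family, with earlier results of these data known, and each symbol matched 1 row in both matrices. Levels were followed across cell classes defined by marker genes and along the level of Col10a1 within cells rich in Col2a1. All 10 genes passed every filter on low values in the class comparisons.

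The tissue was callus, grown to bridge a broken bone, of wt mice after the femoral fracture model. The study's methods name C57BL/6J mice, with 5 animals at 10 days and 5 animals at 20 days after fracture. The 2 single-cell libraries, MGJ and MGJ2, share every label except their name. Neither label gives a day or says how the animals were divided, so the libraries were left without a group, are shown side by side, and no test between them was made.

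Fibrillar collagens are triple helices of 3 chains that pack into fibrils, the tensile scaffold of bone, tendon, skin and cartilage. Type I collagen is the main collagen of bone and tendon, type III joins it in loose and healing tissue, and type II is the main collagen of cartilage. Types V and XI are minor chains that sit inside type I and type II fibrils and limit their width, and types XXIV and XXVII are later described members with shorter helices. In a healing fracture cartilage forms first, its cells enlarge and switch on the network collagen gene Col10a1, and bone follows, so the chains made by a cell place it along that course.

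Barcodes needed at least 200 genes and at most 20% of UMIs from mitochondrial genes, and called doublets were taken out of MGJ2, after which 13460 cells of MGJ (133863477 UMIs) and 7583 of MGJ2 (58050170 UMIs) remained. The labels give a capture target of 5000 cells for each library, below the 14295 and 8009 barcodes in the matrices. The kept cells of the 2 libraries shared 13 barcodes, or 0.171% of the smaller set. A UMI is a molecular tag that counts 1 captured RNA molecule, so gene length does not enter a comparison between genes. Levels are given as CPM, the UMIs of a gene per 1000000 UMIs of the cells summed. Intervals are exact 95% intervals and cover counting error only, since each library is 1 sample and its value has no replicate. The 10 genes took 4.90% of all UMIs in MGJ and 0.645% in MGJ2.

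Cells were clustered in each library without the 10 genes and named from markers that include none of them, hence the ending "-like". Chondrocyte-like cells, 2042 in MGJ and 149 in MGJ2, had all 14 chondrocyte markers above the level of the other cells of their library. Acan, the large proteoglycan of cartilage, reached 5164 CPM in MGJ and 4636 CPM in MGJ2 against 82.4 and 9.15 CPM in neutrophil-like cells. MGJ also held 1638 fibroblast-like, 272 osteoblast-like and 155 mural-like cells. In MGJ2 no stromal class other than the chondrocyte-like one reached 50 cells. Neutrophil-like cells (2048 and 2298) served as the reference for free RNA, the stray molecules that reach every droplet. They held 677 CPM of Col2a1 in MGJ and 72.3 CPM in MGJ2.

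The 10 genes lie on 8 chromosomes of the mouse build GRCm38 (GENCODE M21), and all are protein-coding. The main cartilage chain gene Col2a1 is at chr15:97975602-98004695 on the minus strand. Col1a1 is at chr11:94936224-94953042 and Col1a2 at chr6:4504814-4541544, both on the plus strand. Col3a1 (chr1:45311538-45349706, plus strand) and Col5a2 (chr1:45374321-45503282, minus strand) are neighbours whose ends lie 24614 bases apart. Col11a1 is at chr3:114030540-114220718, Col11a2 at chr17:34039437-34066685, Col5a1 at chr2:27886425-28039514, Col24a1 at chr3:145292472-145552011 and Col27a1 at chr4:63214004-63334991, all on the plus strand.

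Promoter sequences in the RefSeq table (GRCm38.p6) matched 7 of the 10 genes. Col1a1, Col2a1 and Col5a2 had no entry. The 250 bases before the RefSeq start are printed for 2 genes highest in chondrocyte-like cells and 2 genes highest in other stromal cells of MGJ, because these pairs lay on opposite sides of the comparison of chondrocyte-like with fibroblast-like cells. Capitals mark 4 motifs searched on both strands. These were the CCAAT box, the TATA box in the form TATAAA, the GC box in the form GGGCGG, and, for the core bound by SOX proteins, AACAAT.
Col11a1, chr3:114030290-114030539, plus strand: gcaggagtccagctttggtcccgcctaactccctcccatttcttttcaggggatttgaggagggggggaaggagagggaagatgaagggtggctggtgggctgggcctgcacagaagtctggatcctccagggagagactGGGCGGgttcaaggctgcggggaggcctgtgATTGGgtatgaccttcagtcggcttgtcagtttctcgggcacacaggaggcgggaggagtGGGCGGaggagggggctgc
Col11a2, chr17:34038888-34039137, plus strand: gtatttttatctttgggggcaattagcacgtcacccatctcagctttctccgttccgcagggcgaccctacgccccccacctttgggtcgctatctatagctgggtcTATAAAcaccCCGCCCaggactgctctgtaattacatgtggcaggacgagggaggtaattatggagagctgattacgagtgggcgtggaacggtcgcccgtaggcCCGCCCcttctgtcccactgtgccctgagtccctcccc
Col1a2, chr6:4505368-4505617, plus strand: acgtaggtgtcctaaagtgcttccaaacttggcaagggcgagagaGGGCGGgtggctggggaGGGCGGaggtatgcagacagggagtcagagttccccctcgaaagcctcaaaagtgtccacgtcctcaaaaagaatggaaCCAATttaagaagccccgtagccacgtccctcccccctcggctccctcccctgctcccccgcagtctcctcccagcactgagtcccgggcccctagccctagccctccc
Col3a1, chr1:45311288-45311537, plus strand: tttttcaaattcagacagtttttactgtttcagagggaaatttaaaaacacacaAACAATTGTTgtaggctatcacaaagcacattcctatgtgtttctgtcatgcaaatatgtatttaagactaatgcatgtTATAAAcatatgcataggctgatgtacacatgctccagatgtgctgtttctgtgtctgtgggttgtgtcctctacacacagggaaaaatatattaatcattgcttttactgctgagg
Among the 7 promoters, GGGCGG occurred in 5 (Col1a2, Col5a1, Col11a1, Col11a2 and Col27a1), against 32.7% of the 32851 promoters in the table. The CCAAT box occurred in Col1a2 and Col11a1 (33.8% of all), the TATA form in Col3a1 and Col11a2 (12.4% of all) and the SOX core in Col3a1 alone (9.42% of all), where matches on both strands overlap. The motifs thus do not divide the printed promoters by the class in which the genes were highest. These are matches of letters and not known sites.

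In the chondrocyte-like cells of MGJ, Col2a1 stood at 55906 CPM (interval 55836 to 55976). Its partner chain genes Col11a1 and Col11a2, which encode the thin core of cartilage fibrils, stood at 8857 and 2752 CPM, and Col27a1 at 771 CPM. Against all other cells of the library the level was 4.96 times as high for Col2a1, 4.49 for Col11a1, 4.55 for Col11a2 and 3.88 for Col27a1 (3.81 to 3.95). These 4 of the 10 genes were at least 2-fold higher with an interval above 1, where 10.4% of the 14765 genes tested were. Col3a1 (0.366) and Col24a1 (0.174) were at least 2-fold lower, where 24.3% of all genes were. The median ratio was 0.949 for the family and 0.885 for all genes.

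Unnamed cells were the largest class of MGJ, with 3868 cells (28.7% of those kept) and a median of 1945.5 UMIs. They weighed on that reference, because they held 78.3% of the Col2a1 UMIs outside the chondrocyte-like class. They include 652 cells in 3 sub-clusters of the chondrocyte clusters, with 39456 to 59207 CPM of Col2a1, that were left unnamed because osteoblast, neutrophil or macrophage genes led them. The Col2a1 ratio was 17.6 with unnamed cells left out and 11.6 with every cell weighted equally, and ran from 3.999 to 18.3 over all alternatives. Col11a1 ran from 3.58 to 11.7, Col11a2 from 3.63 to 13.3 and Col27a1 from 3.34 to 8.84. Col1a1, Col5a1 and Col5a2 changed from below 1 (0.592, 0.606 and 0.802) to above 1 (1.20, 1.29 and 1.67) when every cell was weighted equally, and Col1a2 went from 1.10 to 2.34.

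Fibroblast-like cells gave a sharper contrast within the same library. The ratio of chondrocyte-like to fibroblast-like cells was 9.85 for Col2a1, 7.21 for Col11a2, 5.72 for Col11a1 and 4.27 for Col27a1. It was 0.488 for Col1a2, 0.327 for Col5a2, 0.241 for Col1a1, 0.226 for Col5a1, 0.129 for Col3a1 and 0.0714 for Col24a1 (0.0491 to 0.101). All 10 genes therefore passed the 2-fold limit, 4 upward and 6 downward, where 9.19% and 20.5% of 13214 genes did. The minor chains split with their partners: the type XI chain genes went with type II, and the type V chain genes with types I and III.

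**Figure D1:**
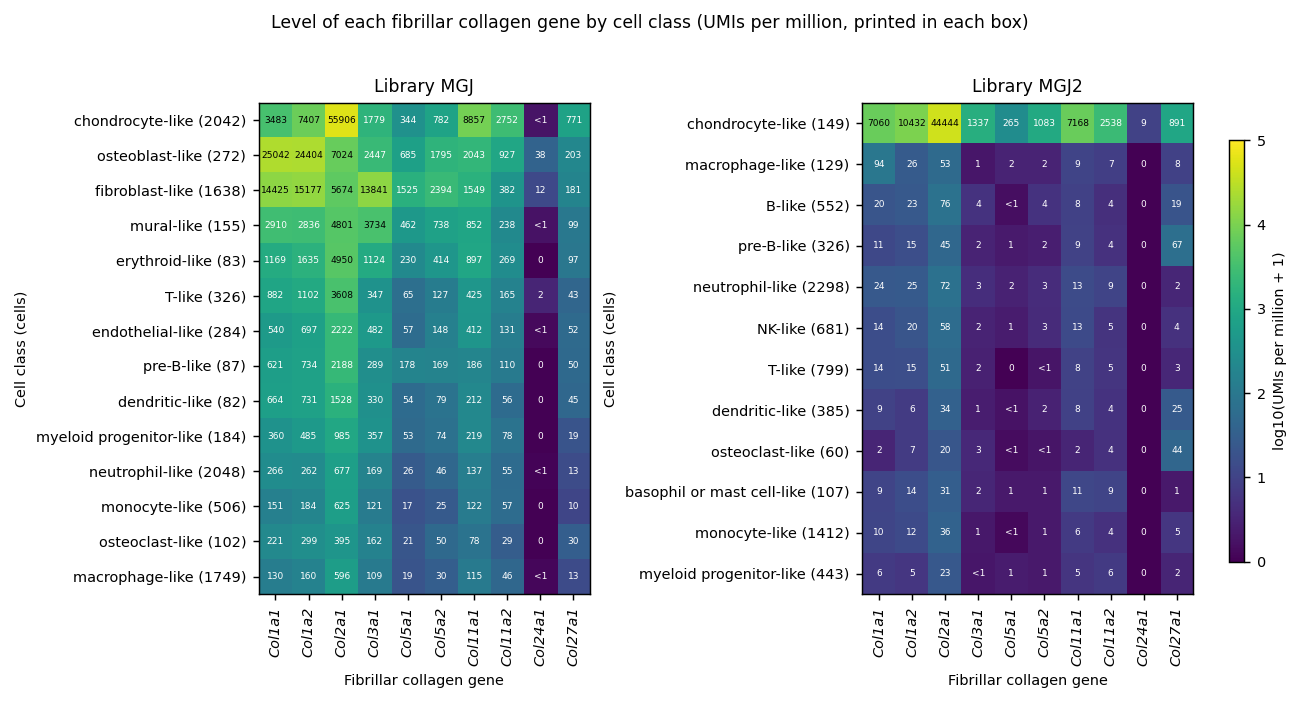
Level of the 10 fibrillar collagen genes (columns) in each cell class of at least 50 cells (rows, with the number of cells), as CPM on a log colour scale, in MGJ and MGJ2. In MGJ the type II and XI genes and Col27a1 are highest in chondrocyte-like cells. In that library the type I, III and V genes are highest in fibroblast-like or osteoblast-like cells. In MGJ2 all 10 are highest in chondrocyte-like cells, but these are its only stromal class of at least 50 cells. The MGJ2 panel therefore cannot compare stromal classes.

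Chondrocyte-like cells of MGJ2 also had Col2a1 as their leading member. Col2a1 stood at 44444 CPM, Col1a2 at 10432, Col11a1 at 7168, Col1a1 at 7060, Col11a2 at 2538, Col3a1 at 1337, Col5a2 at 1083, Col27a1 at 891, Col5a1 at 265 and Col24a1 at 8.56 CPM. All 10 were at least 2-fold above the other cells, where 19.8% of the 13065 genes tested were above and 31.1% below by that fold. The ratio ran from 15.3 for Col24a1 (9.22 to 25.7) to 749 for Col2a1, and its median was 35.1 against 0.781 for all genes. These sizes depend on the clustering: the ratio fell to 77.0 for Col2a1 and 78.5 for Col11a1 with both libraries clustered together, and to 4.37 for Col1a1 and 10.2 for Col1a2 with each cell named by its highest marker score. Genes of other marker lists were also higher in these chondrocyte-like cells. These were 9 of 10 osteoblast markers (10213 against 135 CPM in sum) and 12 of 13 fibroblast markers (3174 against 78.9 CPM). Ibsp alone stood at 8279 CPM and Dcn at 2230 CPM, so 1 gene gave the larger part of each sum. In MGJ, Dcn stood at 2234 CPM in chondrocyte-like and 3112 CPM in fibroblast-like cells, so it hardly set these classes apart. The part of other cells in the levels of the type I, III and V genes was not tested. The other cells of MGJ2 were almost wholly blood-derived. A sub-cluster of 48 unnamed stromal cells led by Rgs5, Cxcl12 and Tnc was an exception, with 23692 CPM of Col1a1 and 1132 CPM of Col2a1. Without the unnamed cells the Col1a1 ratio was 493 in place of 18.5.

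Col2a1 made up 68.1% of the family's UMIs in the chondrocyte-like cells of MGJ and 59.1% in those of MGJ2. The family as a whole took 8.21% and 7.52% of all UMIs in these cells. In fibroblast-like cells it took 5.52%, spread over Col1a2 (15177 CPM), Col1a1 (14425) and Col3a1 (13841), with Col2a1 at 5674 CPM. Osteoblast-like cells gave it 6.46%, led by Col1a1 (25042 CPM) and Col1a2 (24403.5 CPM), with Col2a1 at 7024 and Col3a1 at 2447 CPM. Mural-like cells, which wrap small vessels, had Col2a1 at 4801, Col3a1 at 3734, Col1a1 at 2910 and Col1a2 at 2836 CPM. The mural-like cell with the most Col2a1 held 1889 of the 6704 UMIs. With cells thinned to equal depth, Col2a1 was detected in 52.6% of mural-like and 66.3% of neutrophil-like cells. Shares for Col3a1, Col1a2 and Col1a1 were 90.5%, 83.2% and 78.8% in mural-like cells. They were 18.9%, 28.3% and 24.9% in neutrophil-like cells. The part of free RNA in the mural-like Col2a1 level was not tested.

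**Figure D2:**
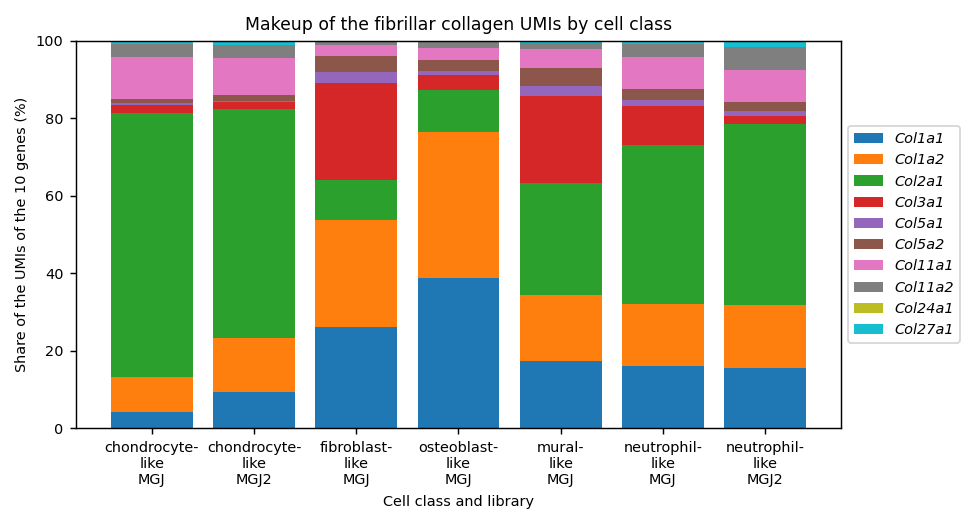
Share of each gene in the summed UMIs of the 10 fibrillar collagen genes (vertical axis, percent), 1 bar per cell class and library. Col2a1 fills 68.1% and 59.1% of the chondrocyte-like bars, and Col1a1 and Col1a2 the larger part of the fibroblast-like and osteoblast-like bars.

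Pooled levels hide a wide spread among cells. Col2a1 in single chondrocyte-like cells of MGJ had a median of 56258 CPM, with 10% of cells under 20938 and 10% over 84326 CPM. Fibroblast-like cells had a median of 434 CPM with 10% of cells over 17917 CPM, so their pooled 5674 CPM came from a minority of cells. After thinning to 2000 UMIs, Col2a1 was detected in 65.5% of 1610 fibroblast-like cells and in 66.3% of 1219 neutrophil-like cells. Cells too shallow for thinning were left out, 28 fibroblast-like and 829 neutrophil-like, so thinned shares do not cover whole classes. The share was 55.8% in macrophage-like (53.4 to 58.3) and 40.0% in osteoclast-like cells, so the fibroblast-like share lay within the range of the blood-cell classes, which reached 70.04% in T-like cells. Median depth was 16512.5 UMIs in fibroblast-like and 2329.5 UMIs in neutrophil-like cells before thinning. The unthinned shares, over all cells of these classes, were 98.2% and 85.1%. The thinned share of chondrocyte-like cells was 99.8% in MGJ and 100% in MGJ2, where neutrophil-like cells gave 12.96%.

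Osteoblast-like cells had a pooled level set by few cells. Their median cell had 4039.5 CPM of Col1a1 and 10% of cells were over 43510.3 CPM, against a pooled level of 25042 CPM. The class had a median of 2039 UMIs per cell, and its 10 leading genes held Ibsp, a bone matrix gene, beside Gm26917 and Lars2. With every cell weighted equally, Col1a1 and Col1a2 were highest in fibroblast-like in place of osteoblast-like cells.

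Col1a1 exceeded Col2a1 in 1415 of the fibroblast-like cells (86.4%) and in 146 of the osteoblast-like cells (53.7%). It did so in 24 of the 2042 chondrocyte-like cells of MGJ (1.18%) and in 15 of the 149 of MGJ2 (10.1%). Col1a1 formed a median of 3.62% of the Col1a1 and Col2a1 level in the chondrocyte-like cells of MGJ and 3.69% in those of MGJ2. The top 10% of cells lay above 17.1% in MGJ and above 49.9% in MGJ2, so the medians were close and the upper tails were not.

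The 2 chain genes of type I collagen, which are joined in 1 protein, were not counted in a fixed proportion. Chondrocyte-like cells had 0.470 Col1a1 UMIs per Col1a2 UMI in MGJ (0.467 to 0.473) and 0.677 in MGJ2 (0.667 to 0.687). The proportion was 0.950 in fibroblast-like cells (0.946 to 0.954), 1.03 in osteoblast-like cells (1.01 to 1.04) and 1.03 in mural-like cells (0.982 to 1.07). It was 1.01 in neutrophil-like cells of MGJ (0.953 to 1.08), where 1 cell held 519 of the 2004 Col1a1 UMIs. In the other blood-cell classes of MGJ it ran from 0.715 in erythroid-like to 0.909 in dendritic-like cells. All 9 chondrocyte-like sub-clusters of MGJ, at 0.345 to 0.621, lay below all 3 fibroblast-like clusters, at 0.910 to 0.977. In MGJ2 the 4 sub-clusters ran from 0.435 to 1.04 and overlapped that range.

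Type V and type XI chain genes were also unequal. Col5a1 UMIs per Col5a2 UMI were 0.440 in chondrocyte-like cells of MGJ, 0.244 in those of MGJ2, 0.637 in fibroblast-like and 0.382 in osteoblast-like cells. Col11a1 exceeded Col11a2 in each of these classes, by 3.22 and 2.82 times in chondrocyte-like cells of MGJ and MGJ2, 4.06 times in fibroblast-like and 2.21 times in osteoblast-like cells.

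Within the chondrocyte-like cells, a sub-cluster of 387 cells of MGJ led by Ppa1, Il17b and Panx3 held 71169 CPM of Col2a1, 11188 CPM of Col11a1 and 1144 CPM of Col27a1. The 229 cells led by Col10a1, with the signal gene Ihh among their leading genes, held 28979.5, 3825 and 268 CPM. Their Col1a1 level of 976 CPM was the lowest of the 9 sub-clusters, which otherwise ran from 2706 to 5731 CPM. Col5a1 stood at 968 CPM in a sub-cluster of 196 cells led by Nrn1 and Chrdl2, against 117 to 458 CPM in the other 8. Its median cell was at 896 CPM, so few cells did not set that level, and Col2a1 in the same cells was 54755 CPM.

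A pair of sub-clusters of MGJ2 with similar Col2a1 (25691 and 25774 CPM) and high Col10a1 (41411 and 34285 CPM) differed in Col1a1. It was 2478 CPM in the 47 cells led by Col10a1 and Tnfrsf11b. In the 27 cells with Ihh, Mmp13 and Dmp1 among their leading genes it was 15372 CPM, although their median cell held 1433 CPM. Mmp13 encodes a collagenase of late cartilage and Dmp1 a protein of mineralizing bone.

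Fibroblast-like clusters of MGJ differed in minor chains. The 939 cells led by the tendon gene Tnmd and by Aspn had 2027 CPM of Col11a1 and 6.93 CPM of Col24a1. The 635 cells led by Cxcl12 and Cxcl5 had 976 CPM of Col11a1 and 17.4 CPM of Col24a1 (15.1 to 20.0).

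Col24a1, whose chain has been found in developing bone, was the scarcest member. It gave 64 UMIs in 33 osteoblast-like cells of MGJ (37.7 CPM, interval 29.0 to 48.1), 333 UMIs in 257 fibroblast-like cells (11.6 CPM) and 36 UMIs in 32 chondrocyte-like cells (0.825 CPM). The osteoblast-like level was 3.26 times the fibroblast-like one (2.45 to 4.27). Neutrophil-like cells had 1 UMI in MGJ and 0 in MGJ2, a count that allows up to 0.469 CPM. In MGJ2 it was counted 37 times in 25 chondrocyte-like cells (8.56 CPM, interval 6.03 to 11.8) and 30 times in the 48 unnamed stromal cells (36.0 CPM). After thinning, 4.35% of osteoblast-like, 1.93% of fibroblast-like and 0.198% of chondrocyte-like cells of MGJ held a UMI, against 5.56% of chondrocyte-like cells of MGJ2. The osteoblast-like share was 6 of 138 cells, with 134 cells too shallow for thinning left out.

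Col27a1, a cartilage collagen with a shortened helix, was counted in some blood classes out of proportion to Col2a1. In MGJ2, pre-B-like cells held 67.4 CPM (57.4 to 78.6) from 162 UMIs spread over 96 of 326 cells, with at most 9 in a cell. Osteoclast-like cells held 43.7 CPM (94 UMIs in 24 of 60 cells), dendritic-like cells 24.6 CPM (100 UMIs in 54 of 385 cells) and B-like cells 18.6 CPM. Neutrophil-like cells held 2.42 CPM. These values are small beside the 891 CPM of chondrocyte-like cells, but they lie above the neutrophil-like reference.

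Col27a1 UMIs per Col2a1 UMI also differed between classes. The proportion in MGJ2 was 0.0200 in chondrocyte-like cells and 0.0334 in neutrophil-like cells (0.0200 to 0.0526). It was 1.49 in pre-B-like (1.16 to 1.91), 2.14 in osteoclast-like (1.48 to 3.13), 0.725 in dendritic-like (0.554 to 0.944) and 0.245 in B-like cells. It was smaller, but with intervals above the neutrophil-like one, in macrophage-like (0.157), monocyte-like (0.143, interval 0.109 to 0.185) and myeloid progenitor-like cells (0.104, interval 0.0664 to 0.155). The macrophage-like value rested on 8 Col27a1 UMIs, and 0 of 107 thinned cells held any. The Col27a1 level of neutrophil-like cells was 1.03 times that of myeloid progenitor-like cells (0.538 to 1.93), so these were not told apart. Thinned shares with Col2a1 were 12.96% in neutrophil-like and 3.13% in myeloid progenitor-like cells, so the lower Col2a1 raised the latter proportion. The part of free RNA in these values was not tested. After thinning, 15.8% (11.9 to 20.3) of the 317 pre-B-like cells deep enough held a Col27a1 UMI, against 0.589% of 1697 neutrophil-like cells. Median depth was 3952 UMIs in pre-B-like and 2478 UMIs in neutrophil-like cells.

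In MGJ the proportion was 0.0230 in pre-B-like cells (0.0155 to 0.0328) and 0.0198 in neutrophil-like cells (0.0161 to 0.0241), and these intervals overlap. Osteoclast-like cells gave 0.0757 (0.0589 to 0.0961), above both. Col1a1 and Col3a1 per Col2a1 were also higher in osteoclast-like (0.558 and 0.409) than in neutrophil-like cells (0.392 and 0.249) of MGJ, so Col27a1 was not alone there. The chondrocyte-like value was 0.0138.

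**Figure D3:**
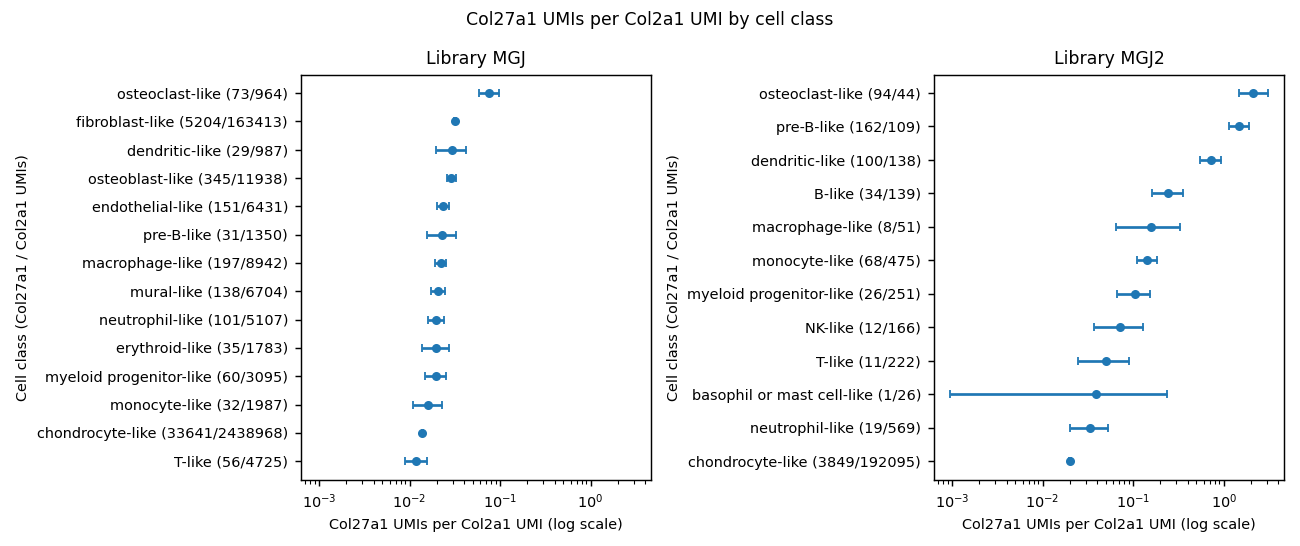
Col27a1 UMIs per Col2a1 UMI (horizontal log axis, points with exact 95% intervals) in each cell class, with the UMIs of both genes beside the class name, for MGJ and MGJ2. In MGJ2 the pre-B-like, osteoclast-like and dendritic-like values (1.49, 2.14 and 0.725) lie above the chondrocyte-like (0.0200) and neutrophil-like (0.0334) values, and in MGJ the osteoclast-like value (0.0757) lies above the neutrophil-like value (0.0198).

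Some values of other members outside the stroma rested on single cells. The 94.0 CPM of Col1a1 in macrophage-like cells of MGJ2 came from 90 UMIs, 55 of them in 1 cell. The 178 CPM of Col5a1 in pre-B-like cells of MGJ came from 110 UMIs, 99 of them in 1 cell. Col11a2 in myeloid progenitor-like cells of MGJ2 did not, with 67 UMIs in 62 of 443 cells. Its level there, 6.05 CPM, was below the 9.41 CPM of neutrophil-like cells, while Col11a2 UMIs per Col2a1 UMI were 0.267 (0.201 to 0.351) against 0.130 (0.101 to 0.166).

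Classes were ordered by the level of each gene, and neighbours were told apart where the interval of their ratio excluded 1. That interval covers counting error and not the spread among cells. For Col2a1 the order ran from chondrocyte-like over osteoblast-like (7.96 times lower) and fibroblast-like to erythroid-like and mural-like cells, and the last pair was not told apart (1.03, interval 0.978 to 1.09). For Col3a1 it ran from fibroblast-like over mural-like (3.71 times lower), osteoblast-like and chondrocyte-like cells, each step with an interval above 1. For Col27a1 osteoblast-like and fibroblast-like cells differed by a ratio of 1.12, with an interval (1.0045 to 1.25) that barely excludes 1.

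Genes with the pattern most like that of a member were sought over 14 classes of MGJ and 12 of MGJ2, by the mean of the Pearson correlations of log2(CPM + 10), among 10131 genes outside the family. The classes of a library share its free RNA and depth, so these are descriptions. In MGJ2 the chondrocyte-like class was the only stromal one, so that class weighs heavily on any stromal gene. There Col2a1 correlated at 0.989 with Col3a1 and 0.997 with Col1a2, against 0.742 and 0.833 in MGJ. With Col27a1 it went the other way (0.838 in MGJ2 and 0.949 in MGJ). Col2a1 was closest to the cartilage matrix genes Acan (0.985), Col9a3 (0.983) and Hapln1 (0.982). Col3a1 was closest to Postn (0.986), Col6a3 (0.984) and Aebp1 (0.981), and Col1a1 to Ccn4 (0.972), Mmp2 (0.966) and Sdc2 (0.961). The values for Col27a1 were lower, with Fgfrl1 (0.935), Serinc5 (0.931) and Ptch1 (0.926) closest, and Col24a1 had too few UMIs.

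The course towards hypertrophy, the enlargement that precedes bone, was read along Col10a1 in Col2a1-high cells, those with at least 2000 UMIs and Col2a1 at 1% of UMIs or more. There were 2860 such cells in MGJ and 121 in MGJ2. In MGJ 1943 of them were chondrocyte-like, 625 unnamed, 225 fibroblast-like and 33 osteoblast-like, and in MGJ2 118 were chondrocyte-like. The 5 cells just inside the limit had Col2a1 at 1.001% to 1.01% of UMIs in MGJ and 1.05% to 1.20% in MGJ2, and the 5 just outside had 0.971% to 0.998% and 0.749% to 0.983%. Since Col2a1 chose these cells, its values are a description. Col10a1-high cells (at least 10000 CPM) numbered 497 and 45, and Col10a1-low cells (under 1000 CPM) 1971 and 55.

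Both type I chain genes, Col3a1 and Col5a1 were lower in Col10a1-high cells of both libraries. In MGJ Col1a1 was at 1965 CPM in high and 4905 CPM in low cells, a ratio of 0.401 (0.395 to 0.406). The ratio was 0.617 for Col1a2, 0.450 for Col3a1 (0.442 to 0.459) and 0.452 for Col5a1 (0.432 to 0.473). These 4 of the 9 members other than Col2a1 were at least 1.5-fold lower with an interval below 1, where 20.1% of 12459 genes were. Col5a2 (0.772), Col11a2 (0.825), Col11a1 (0.891) and Col27a1 (0.931) stayed within 1.5-fold, with intervals below 1. Col24a1 had 14 and 47 UMIs and a ratio of 1.14 (0.582 to 2.11).

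All 8 of the 9 members with enough UMIs were at least 1.5-fold lower in MGJ2, where 18.6% of 5677 genes were. Col5a1 had a ratio of 0.281 (0.235 to 0.334), Col1a1 0.311, Col3a1 0.357, Col11a2 0.425, Col1a2 0.462, Col27a1 0.494, Col11a1 0.502 and Col5a2 0.557. Col24a1, with 7 and 13 UMIs, gave no ratio. No member was at least 1.5-fold higher in either library, where 13.8% of genes in MGJ and 13% in MGJ2 were. The median ratio was 0.772 in MGJ and 0.443 in MGJ2 for the members, and 0.933 and 0.948 for all genes. Col2a1 itself had ratios of 0.976 and 0.689.

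**Figure D4:**
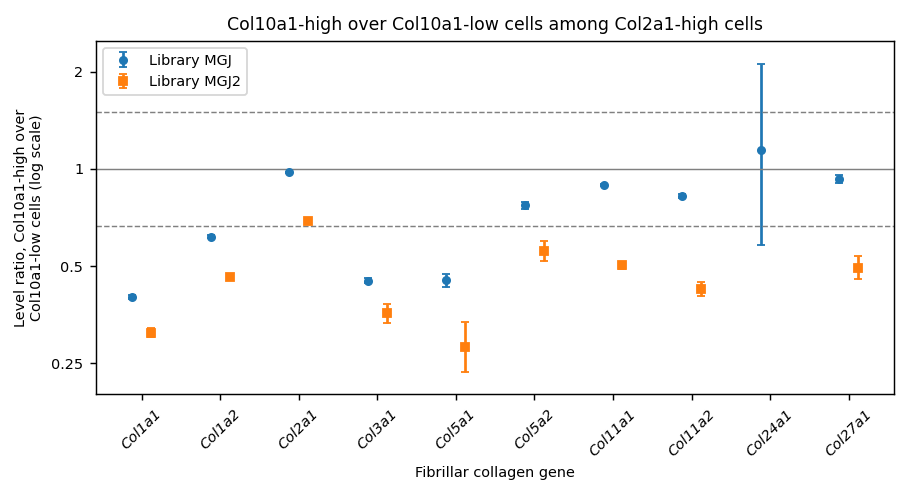
Level ratio of Col10a1-high over Col10a1-low cells among Col2a1-high cells (vertical log axis) for each fibrillar collagen gene, with exact 95% intervals, in MGJ (circles) and MGJ2 (squares), and dashed lines at 1.5-fold either way. Col1a1, Col1a2, Col3a1 and Col5a1 lie below the lower dashed line in both libraries, and Col24a1 of MGJ2 is not drawn because it had too few UMIs.

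The intermediate bins showed that the levels did not fall in step. In the 6 bins of MGJ, from under 300 to at least 30000 CPM of Col10a1, Col1a1 stood at 4999, 4238, 3234, 3387, 2398 and 1215 CPM. Col2a1 was 51983, 60006, 63259.9, 63444, 56017 and 44187 CPM, highest in the middle. Col11a1 (8379, 9619, 9762, 9830.2, 8507 and 6042 CPM) and Col27a1 (692, 947, 986, 993, 816 and 427 CPM) had the same shape. Col5a1 held at 402 to 426 CPM over the first 4 bins and was 228 and 124 CPM in the last 2.

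Proportions within type I shifted along the same bins. Col1a1 UMIs per Col1a2 UMI were 0.579 in the lowest and 0.320 in the highest Col10a1 bin of MGJ. In MGJ2 they were 0.797 and 0.184, but 0.651 in the bin before the highest, so the course was not even.

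MGJ2 had 42, 13, 7, 14, 22 and 23 cells in these bins. Col2a1 was 52971, 64647, 59937, 65840.1, 46334 and 32163 CPM, and Col27a1 975, 1592, 1671, 1676, 658 and 486 CPM, again highest in the middle. That middle rests on bins of 13, 7 and 14 cells, and without them both genes were highest in the lowest Col10a1 bin. Col1a1 was 10429.9, 10582, 5363, 5286, 6400.3 and 588 CPM. Its median cell was at 2199.9, 586, 2282, 1639.8, 449 and 214 CPM, below the pooled level in every bin, so few cells carried much of each pooled level. Comparing the lowest with the highest 20% of cells by Col10a1 moved the Col1a1 ratio of MGJ2 from 0.311 to 0.0557.

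**Figure D5:**
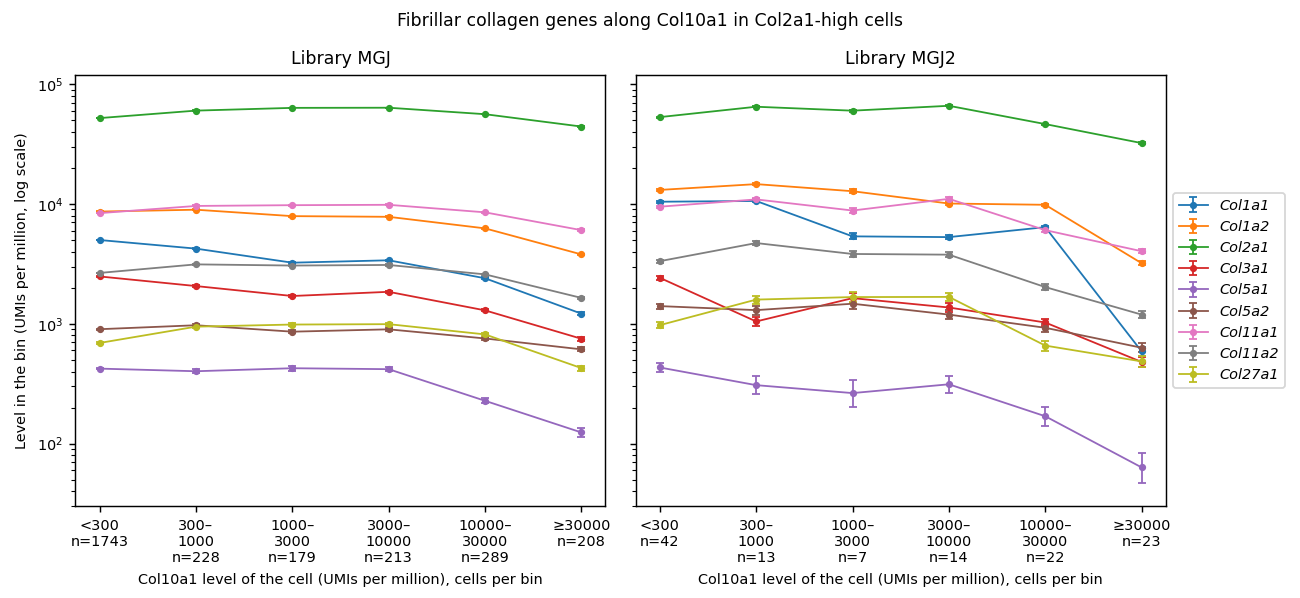
Level of the fibrillar collagen genes (vertical log axis, CPM, with exact 95% intervals) in 6 bins of Col10a1 level (horizontal axis, CPM, with the number of cells n) among Col2a1-high cells of MGJ and MGJ2. Col2a1, Col11a1 and Col27a1 are highest in middle bins in both libraries, although the middle bins of MGJ2 hold 7 to 14 cells, and Col1a1 is lowest in the highest bin (1215 and 588 CPM). Col24a1 is not drawn.

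Genes of other marker lists also differed between Col10a1-high and Col10a1-low cells. The 10 osteoblast markers summed to 12346 CPM in Col10a1-high and 2257.5 CPM in Col10a1-low cells of MGJ, and 7 of the 10 were higher, while in MGJ2 the sums were 12476 and 7520.2 CPM with 5 of 10 higher. The 12 neutrophil markers summed to 1926 and 1785 CPM in MGJ, with 8 of 12 higher, and to 4426 and 251 CPM in MGJ2, with 11 of 12 higher. The 10 macrophage markers summed to 127 and 80.7 CPM in MGJ, with 4 of 10 higher and 1 at 0, and to 128 and 54.6 CPM in MGJ2, with 3 of 10 higher and 6 at 0 in the high cells. The 13 fibroblast markers summed to 2933 and 4192 CPM in MGJ, with 1 of 13 higher, and to 3505 and 3619 CPM in MGJ2, with 4 of 13 higher. In the highest Col10a1 bin of MGJ2 the neutrophil markers summed to 7844 CPM, against 232 to 385 CPM in its other bins. The counts of 4 and 8 lower members were the same without the cells that held 1% or more of neutrophil and macrophage marker UMIs. The part of osteoblast and fibroblast markers in the result was not tested.

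Collagen assembly was followed through a list of 30 genes for folding, export, cross-linking, receptors and regulators. In chondrocyte-like against other cells 13 were at least 2-fold higher and 4 lower in MGJ (median ratio 1.92), where 10.4% and 24.3% of all genes were. In MGJ2 24 were higher and 0 lower (median 17.0), where 19.8% and 31.1% of all genes were. Against fibroblast-like cells 4 were higher: the cross-linking enzyme gene Loxl4 (8.90), the collagen receptor gene Itga10 (3.10), and Sox6 (3.29) and Sox5 (2.08), partners of Sox9 at cartilage genes. Lower were 7 of the 30, where 20.5% of all genes were lower and 9.19% higher. Among them were Adamts2 (0.0421), which trims the ends of procollagens I and III, and Loxl1 (0.0646), Itga11 (0.0757) and Col5a3 (0.0771), the third type V chain gene. Against all other cells Col5a3 had a ratio of 0.216 in MGJ and 1.91 in MGJ2, where it missed the 2-fold limit that the 10 members passed.

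The assembly list was also compared between Col10a1-high and Col10a1-low cells. In MGJ 15 of 30 were at least 1.5-fold lower and 4 higher, where 20.1% and 13.8% of all genes were. In MGJ2 15 of the 22 with enough UMIs were lower and 3 higher, where 18.6% and 13% of all genes were, so the counts of higher genes were near the share of all genes in both libraries. Lower in both were Serpinh1, the collagen chaperone (0.559 in MGJ and 0.397 in MGJ2), Pcolce, the enhancer of propeptide removal (0.230 and 0.181), the lysyl hydroxylase gene Plod2 (0.526 and 0.518), the collagen receptor gene Ddr2 (0.301 and 0.241) and Sox5 (0.362 and 0.309). Higher in both were Loxl4 (9.32 and 8.36), Lox (3.58 and 2.15) and the integrin gene Itga1 (2.83 and 2.67), so the cross-linking genes did not move as 1 group. Loxl3, of the same enzyme family, was lower (0.412 and 0.375).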

How the data were processed

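The authors deposited 1 filtered matrix of UMI counts per library, made from 10x Genomics 3′ (version 3) libraries. Cell Ranger 4.0.0 is named in the file headers, and GRCm38 and Seurat in the submitters' processing notes. The counts are raw, without normalization, and are UMI counts, so PCR copies are not counted again. The members and gene lists were chosen with earlier results of these data known.

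Barcodes with fewer than 200 genes (371 in MGJ, 70 in MGJ2) or over 20% mitochondrial UMIs (464 and 133) were removed. Scrublet in scanpy 1.11.5 called 223 doublets (2.86%) in MGJ2, which were removed, and 0 in MGJ, where it therefore did not work and doublets remain. Each library was clustered separately (2000 variable genes without the members and Col5a3, 30 components, 15 neighbours, Leiden resolution 1, leidenalg 0.10.2). Clusters were named from 20 marker lists, and chondrocyte clusters were sub-clustered. Clusters and sub-clusters led more by markers of other classes than by their own stayed unnamed. So did sub-clusters led by blood-cell markers against the other cells of the chondrocyte clusters. The rule for sub-clusters was chosen after those genes were seen. Names are rebuilt here and may differ from the study's. The genes named were the members in every class, the assembly list, Col10a1, markers of other cells and, for 5 members, the 3 genes with the most similar pattern. Leading genes of clusters and the pair of MGJ2 sub-clusters were chosen after their values were seen.

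Levels are CPM with exact Poisson intervals, ratios have exact conditional binomial intervals, and shares have Clopper-Pearson intervals (scipy 1.17.1). Classes of at least 50 cells and genes with at least 50 UMIs were compared. Calls needed a ratio of 2 between classes or 1.5 along Col10a1. With 1 library per value no test was made. The ratio calculation was tested on simulated data. Protein sequences were not used here. Reads of Col1a2, Col3a1, Col5a2, Col24a1 and Col27a1 could include those of annotated genes that overlap them on the same strand.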

Additional observations from a re-analysis of the deposited data

Results flagged for a closer look

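The barcodes removed by the cell filters and doublet calls also held Col2a1, and this signal in data outside the comparisons is why it is given. The 835 removed barcodes of MGJ held 13902 Col2a1 UMIs, a level of 9648 CPM (9488 to 9810), and the 426 removed barcodes of MGJ2 held 2520 UMIs, or 818.0 CPM (786 to 851). The MGJ2 set includes its 223 called doublets, while MGJ had 0 calls, so the 2 sets are not alike. The level that 3 UMIs would give was 2.08 CPM and 0.974 CPM, a counting floor and not a reference for free RNA. Kept chondrocyte-like cells held 55906 CPM in MGJ and 44444 CPM in MGJ2, and all other kept cells 11263 and 59.3 CPM. The removed barcodes of MGJ thus lay below both values and those of MGJ2 between them. The part of free RNA or of doublets in the removed barcodes was not tested.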

How the results depend on the processing

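The share of Col2a1 in the family's UMIs of chondrocyte-like cells moved by more than its counting interval under most alternatives. In MGJ (68.1%) it was 68.7% with a mitochondrial limit of 10%, 67.5% with at least 500 genes, 68.2% at resolution 0.5, 67.8% at resolution 2, 68.3% with both libraries clustered together, 68.5% with each cell named by its highest marker score, 67.8% with cells weighted equally and 68.7% with the neutrophil-like level subtracted. With alternatives chosen after seeing the data it was 66.9% without sub-clustering, 68.0% with set-aside sub-clusters kept, 69.3% with sub-clusters led by any other class set aside and 67.7% with the highest doublet scores removed at the expected rate. In MGJ2 (59.1%) the matching values were 59.9%, 58.1%, 58.3% at resolution 2, 60.6% clustered together, 66.0% per-cell names, 56.0% equal weights, 52.3% without sub-clustering and 60.8% without the highest doublet scores, and 58.9% with doublet calls kept. The cause of these shifts was not tested. With per-cell names 4 of the 10 members of MGJ2 kept the chondrocyte-like class as highest, since osteoblast-like and fibroblast-like classes then exist there. In MGJ 7 kept their class with at least 500 genes, at resolution 0.5 or without the highest doublet scores, 8 with equal weights and 9 with per-cell names. Members called higher in chondrocyte-like cells numbered 4 in MGJ (5 with equal weights) and 10 in MGJ2 (9 with the neutrophil-like level subtracted). Those lower in Col10a1-high cells numbered 4 in MGJ (5 within chondrocyte-like clusters) and 8 in MGJ2, with 0 higher in every alternative. Of 150 class ratios of MGJ under an alternative, 147 stayed on the same side of 1 and 42 moved over 1.5 times. Of the 147 of MGJ2 all stayed and 41 moved so. Along Col10a1, 112 of 116 and 108 of 108 stayed, and 0 and 5 moved so. No paired analysis was possible because the labels put the libraries in no group. Col24a1 is limited by its depth of at most 333 UMIs in a class.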
